A study of Mus musculus with 18 samples.

Results

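Liver RNA of mice that lack Hmgn1 (Hmgn1-/-) was compared with liver RNA of wild-type mice (Hmgn1+/+) after both had received N-nitrosodiethylamine (DEN). The arrays were chosen by their titles, as 3 knockout and 3 wild-type arrays of DEN-injected liver, 6 of the 18 arrays of the series, which hold 6 groups of 3. All 6 livers came from males that were given 10 µg DEN per g of body weight when they were 4 weeks old, and the titles give 12 weeks. Whether the 12 weeks run from birth or from the injection is not settled by the labels. The knockout and wild-type mice descend from littermates of heterozygous parents, but the homozygotes of each genotype were then bred apart, so other differences between the lines cannot be told apart from that of the targeted gene. The knockout is in the whole animal. The remaining 12 arrays are knockout and wild-type livers with saline in place of DEN at the same age, and knockout and wild-type livers taken at 4 weeks with no injection. Nothing in the labels ties the 3 arrays of a group to 3 animals, and the p-values therefore reflect only the spread from array to array.

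HMGN1 is a small nuclear protein that binds nucleosomes, competes with linker histone for chromatin and is known to take part in the repair of damaged DNA. DEN is a liver carcinogen that needs activation by cytochrome P450, chiefly CYP2E1 of hepatocytes, into an agent that alkylates DNA bases. Such lesions are repaired by direct reversal and by excision pathways, and p53 and the endoplasmic reticulum stress sensors are among the programmes that respond to injury in liver cells.

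Each array gives 1 intensity, the MAS5 signal on a linear scale, for each of 45101 probe sets. Differences are knockout minus wild type on the log2(signal + 16) scale, on which changes of dim probe sets are understated, and each comes with its standard error (SE) from limma with 3 arrays per group. Of 45037 probe sets that are not controls, 27022 passed a filter on the mean over all 18 arrays and were tested, and a gene is represented by its tested probe set of highest mean unless stated, which gave 12896 genes. The 6 saline arrays stand apart from the other 12 in their top signals, 16720 to 21752 against 46967 to 60173, and they enter the fit through the shared estimate of spread. The 6 DEN arrays correlated with each other at r of 0.971 to 0.974 within the knockout, 0.970 to 0.973 within the wild type and 0.968 to 0.976 between genotypes, so arrays of 1 genotype were no more alike than arrays of different genotypes. The ratio of 3′ to 5′ Gapdh signal, a measure of RNA integrity, was 0.937, 0.907 and 0.926 in knockout and 1.13, 1.09 and 1.02 in wild type, with no overlap. The same ratio for Actb was 2.82, 3.05 and 2.88 in knockout and 3.21, 3.37 and 2.89 in wild type, and overlapped. The part of RNA integrity in the results below was tested only by adding the Gapdh ratio to the fit. Hepatocyte genes dominated all 6 arrays: Alb had signals of 37176 to 39768 in knockout and 34810 to 41486 in wild type.

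The targeted gene did not separate the genotypes. Hmgn1 (chr16:96121588-96127725, GRCm38) had signals of 5631, 6894 and 6401 on the arrays labelled knockout and 6463, 5392 and 6983 on the wild-type arrays. The ranges overlapped and the difference was 0.01 (SE 0.10). Other probe sets gave 0.06 (SE 0.10) and -0.03 (SE 0.08), and 1 more was below the filter with mean signals of 7.68 in knockout and 7.53 in wild type. The deleted stretch of the gene is not stated in the labels and the probe positions were not used here, so these probe sets do not check the genotype. "Knockout" therefore stands below for the arrays that carry this label.

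Cyp2e1, the main enzyme of DEN activation, had signals of 28287, 28834 and 27752.5 in knockout and 28226, 30074 and 24854 in wild type, overlapping, with a difference of 0.03 (SE 0.10). Of 4 measured genes of DEN activation and clearance, 0 had an unadjusted p under 0.05. Afp, a fetal and tumour marker of liver, had 20.3, 49.9 and 66.4 in knockout and 26.9, 43.0 and 47.7 in wild type, which overlapped (0.10, SE 0.28).

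With an adjusted p (Benjamini-Hochberg over all tested probe sets) under 0.05, limma called 2 of 27022 probe sets (0.0074%), for Ngfr and Syvn1, both lower in knockout. At an unadjusted p under 0.05 there were 2424 (8.97%), 1487 of them lower (5.5%) and 937 higher (3.47%), where 5 percent of those tested would be 1351. The balance of directions depended on the scaling: 61.3% of these probe sets were lower as deposited, 52.7% after quantile normalization and 37.8% after centring the array medians. In 2920 probe sets (10.8%) the 3 knockout arrays all lay outside the range of the 3 wild-type arrays, lower in 1700 (6.29%) and higher in 1220 (4.51%). Counted by gene, 1 of 12896 passed the adjusted threshold (0.00775%), 1153 the unadjusted one (8.94%) and 1413 did not overlap (11%). The median size of a difference was 0.15, with a median SE of 0.19 and a median half-width of the 95% interval of 0.40, so changes of the usual size were below what 3 arrays per group resolve. Only 90 probe sets differed by more than 1, 33 higher and 57 lower in knockout, and of these 6 had a mean log2 of at least 7 on the DEN arrays. The plot of difference against p shows the 2 called probe sets apart from the rest on the lower side.

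**Figure D1:**
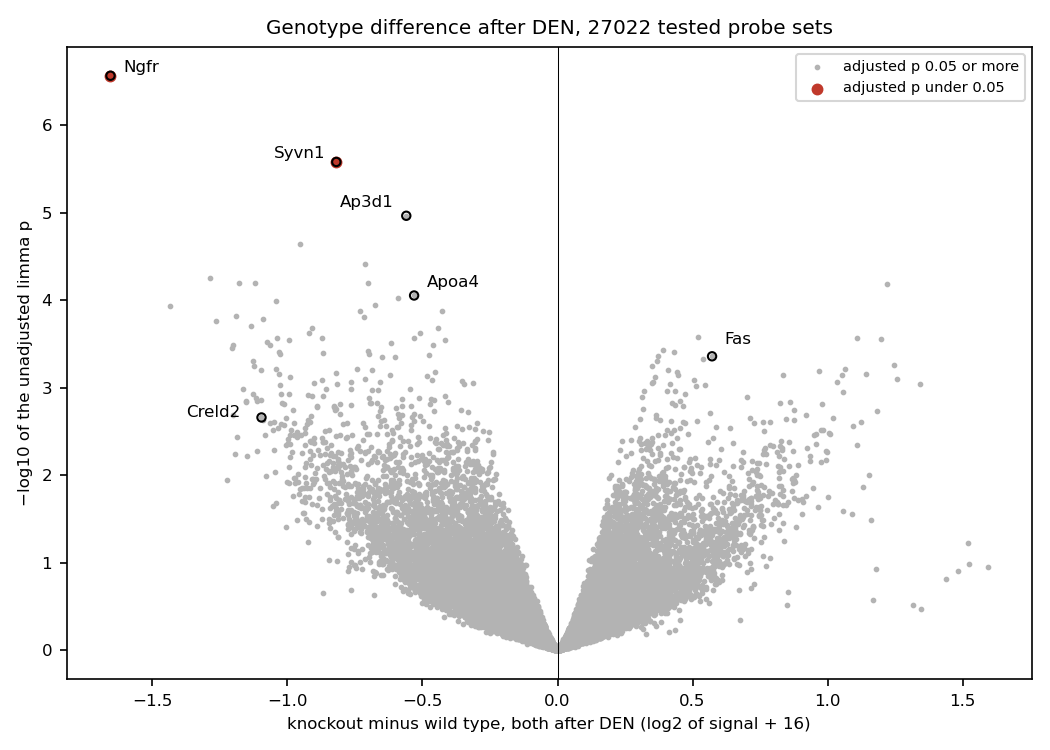
Each point is 1 of the 27022 tested probe sets; the horizontal axis is the knockout minus wild-type difference after DEN (log2 of signal + 16) and the vertical axis is -log10 of the unadjusted limma p. The 2 probe sets with an adjusted p under 0.05, for Ngfr (-1.66) and Syvn1 (-0.82), lie at the upper left, and Ap3d1, Apoa4, Creld2 and Fas are named among the others.

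Ngfr encodes the low-affinity neurotrophin receptor p75NTR, which binds nerve growth factor and related ligands and is known in liver from stellate cells. Ngfr (chr11:95568818-95587698, GRCm38) had signals of 5.74, 6.59 and 3.45 in knockout and 48.3, 67.2 and 39.8 in wild type. All 3 knockout arrays were far below all 3 wild-type arrays, although both groups are dim. The difference was -1.66 (SE 0.22, adjusted p = 0.00733, limma), and it was -3.08 with 1 added before log2 and -0.73 with 64 added. Without wild-type replicate 2 it was -1.50 (adjusted p = 0.141), and without the 6 saline arrays it was -1.66 (adjusted p = 0.0579). The 2 other Ngfr probe sets were below the filter, with mean signals of 16.9 in knockout and 23.4 in wild type for one and 10.1 in knockout and 3.40 in wild type for the other, and were not tested.

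Of 12 measured neurotrophins and receptors, 3 had an unadjusted p under 0.05, all lower, against 5.05% of all genes for that direction. The list's median was -0.06 (-0.03 after quantile normalization, -0.002 after centring) against -0.01 over all genes. The 3 were Ngfr, Nradd, a membrane relative of the p75 receptor, and Sort1, its co-receptor for pro-neurotrophins. Ngfr was already called above and is counted here again, and the lists were chosen with earlier results of these data known. Nradd had signals of 17.9, 2.08 and 16.7 in knockout and 34.2, 56.4 and 27.6 in wild type, without overlap (-0.99, adjusted p = 0.399). Sort1 had signals of 136, 169 and 189 in knockout and 215, 228 and 199 in wild type, also without overlap (-0.36, adjusted p = 0.465). The kinase receptor gene Ntrk2 went the other way, with 79.1, 89.3 and 80.5 in knockout and 63.0, 56.7 and 75.6 in wild type (0.29, adjusted p = 0.608). Markers of nerve and Schwann cells had a summed signal of 184 to 256 in knockout and 169 to 283 in wild type, and those of stellate cells and matrix 7749 to 10336 in knockout and 7786 to 9207 in wild type. In whole liver, fewer cells of a type and less RNA per cell cannot be told apart.

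Syvn1 encodes HRD1, the ubiquitin ligase that marks misfolded proteins of the endoplasmic reticulum for degradation. Syvn1 (chr19:6046576-6053718, GRCm38) had signals of 235, 241 and 274 in knockout and 447, 515 and 399 in wild type at one probe set. The groups were well apart, and the difference was -0.82 (SE 0.13, adjusted p = 0.0354). At its brighter probe set the signals were 741, 482 and 620 in knockout and 846, 1173 and 630 in wild type, where knockout replicate 1 exceeded wild-type replicate 3 and the difference of -0.49 (SE 0.16, adjusted p = 0.388) did not pass. The call at the first probe set was lost with the Gapdh ratio in the fit (-0.80, adjusted p = 0.106), without the 6 saline arrays (-0.82, adjusted p = 0.151) and without wild-type replicate 2 (-0.73, adjusted p = 0.22). The adjusted p was also above 0.05 without wild-type replicate 1 (0.071), knockout replicate 1 (0.0714) or knockout replicate 2 (0.122).

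**Figure D2:**
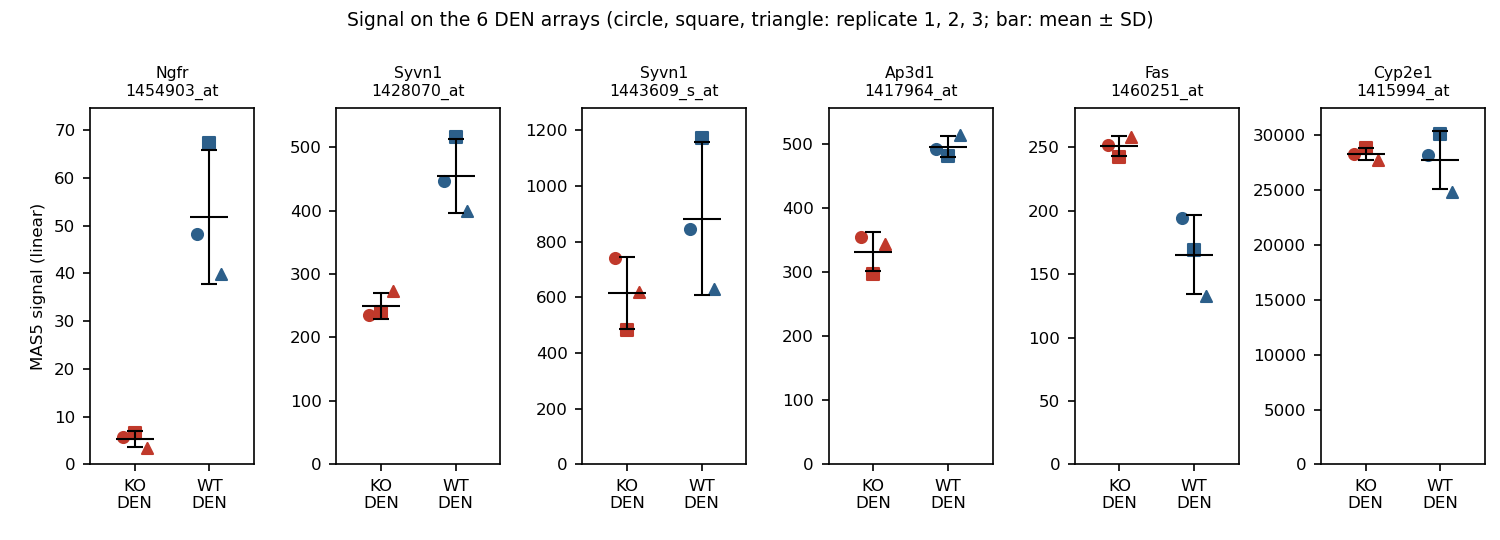
MAS5 signal (linear, from 0) of 6 probe sets on the 3 knockout (red, left) and 3 wild-type (blue, right) DEN arrays; circle, square and triangle are replicates 1, 2 and 3 and bars are the mean ± SD. Knockout arrays lie below wild-type arrays for Ngfr, the first Syvn1 probe set and Ap3d1, above them for Fas, and overlap for the second Syvn1 probe set and Cyp2e1.

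Syvn1 belongs to the unfolded protein response, in which the sensors IRE1, PERK and ATF6 switch on chaperones, folding enzymes and degradation factors when misfolded proteins build up. ATF6 and XBP1 act on many of these genes through the endoplasmic reticulum stress element (ERSE), spelled CCAAT, then any 9 bases, then CCACG. The promoters of Syvn1 and of 3 chaperone or folding genes that carry this spelling, all 4 below 0 in these data, are shown as examples of it; each runs from 250 bases before to 50 after the start of the gene (RefSeq, GRCm38.p6, plus strand), with the match in capitals. They lie at chr19:6046326-6046625 for Syvn1, chr15:88819396-88819695 for Creld2, chr2:34771840-34772139 for Hspa5 and chr13:12565633-12565932 for Ero1b.
Syvn1: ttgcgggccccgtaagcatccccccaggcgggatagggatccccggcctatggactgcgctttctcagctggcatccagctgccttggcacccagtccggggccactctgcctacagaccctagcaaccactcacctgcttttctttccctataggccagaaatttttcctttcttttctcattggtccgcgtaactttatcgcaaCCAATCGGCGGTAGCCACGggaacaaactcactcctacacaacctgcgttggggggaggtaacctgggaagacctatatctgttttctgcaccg
Creld2: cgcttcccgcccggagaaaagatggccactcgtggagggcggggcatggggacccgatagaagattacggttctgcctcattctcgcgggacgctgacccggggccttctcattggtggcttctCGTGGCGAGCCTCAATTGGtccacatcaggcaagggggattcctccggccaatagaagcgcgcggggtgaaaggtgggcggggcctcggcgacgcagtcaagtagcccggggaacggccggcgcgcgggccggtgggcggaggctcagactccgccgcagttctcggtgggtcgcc
Hspa5: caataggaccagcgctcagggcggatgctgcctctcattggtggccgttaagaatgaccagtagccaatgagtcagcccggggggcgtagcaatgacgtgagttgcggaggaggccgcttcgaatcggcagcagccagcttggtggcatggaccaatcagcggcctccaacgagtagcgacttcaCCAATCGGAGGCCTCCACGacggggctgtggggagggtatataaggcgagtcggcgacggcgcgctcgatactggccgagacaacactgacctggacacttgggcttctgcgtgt
Ero1b: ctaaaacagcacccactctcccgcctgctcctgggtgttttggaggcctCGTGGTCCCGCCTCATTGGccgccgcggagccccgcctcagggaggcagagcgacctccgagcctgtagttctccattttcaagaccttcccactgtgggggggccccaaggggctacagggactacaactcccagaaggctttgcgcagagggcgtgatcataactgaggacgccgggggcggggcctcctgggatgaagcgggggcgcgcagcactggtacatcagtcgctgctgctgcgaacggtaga
The match reads forward in Syvn1 and Hspa5, starting 44 and 65 bases before the gene's start, and on the opposite strand in Creld2 and Ero1b. Searched on both strands, it was present in 39 of 32851 promoter windows of this kind (0.119%), and in 37 of 27025 genes. Among the endoplasmic reticulum chaperones and folding enzymes, 8 of 20 genes with a window held it: Calr, Canx, Creld2, Dnajc3, Ero1b, Hsp90b1, Hspa5 and Pdia6. Among degradation factors it was in 2 of 17 (Derl3 and Syvn1), and in 0 of 11 sensors and transcription factors and 0 of 19 translocon and secretion genes. The shorter XBP1 core TGACGTGG, also searched on both strands, was in 0.676% of all windows and in Txndc5 alone among the chaperones. Of the 10 genes with the match in these lists, Canx was at 0.09, Pdia6 at -0.12, Hsp90b1 at -0.23, Calr at -0.24 and Derl3 at -0.57, each with an unadjusted p over 0.05, while Creld2, Dnajc3, Ero1b, Hspa5 and Syvn1 were under it. Of all genes 5.05% were lower at that threshold, and 9 of the 22 chaperones and folding enzymes were. Those 9 include Hyou1, Txndc5, Manf, Sdf2l1 and P4hb, which were not among the genes with the match. These are matches of letters, show no binding, and were not tested against the differences.

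Chaperones and folding enzymes of the endoplasmic reticulum were mostly lower in knockout after DEN, but 0 of 22 passed the adjusted threshold. Of the 22, 18 were lower and 9 had an unadjusted p under 0.05 in that direction and 0 in the other, against 5.05% of all genes lower and 3.89% higher; 3 did not overlap, against 5.99% of all genes in that direction. The median was -0.21 (-0.21 after quantile normalization, -0.15 after centring), against -0.01 over all genes. This list was chosen with Syvn1 already known to be lower in these arrays.

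Creld2, a secreted stress-induced protein, had signals of 846, 356 and 554 in knockout and 826, 2611 and 792 in wild type. Wild-type replicate 2 was by far the highest and knockout replicate 1 lay among the other wild-type arrays (-1.10, SE 0.31, adjusted p = 0.332). Hyou1, a large chaperone of the HSP70 family, had 547, 474 and 524 in knockout and 821, 1023 and 577 in wild type, without overlap (-0.60, adjusted p = 0.303). Txndc5, a disulfide isomerase, had 974, 744 and 944 in knockout and 1062, 1580 and 1105 in wild type, also apart (-0.47, adjusted p = 0.296). Hspa5, the master chaperone BiP, had 11127, 8143 and 9917 in knockout and 10732, 15816 and 9509 in wild type. Only wild-type replicate 2 stood out, and the difference was -0.28 (adjusted p = 0.540). Manf (-0.46), Sdf2l1 (-0.50), Ero1b (-0.38), Dnajc3 (-0.28) and P4hb (-0.18) make up the 9.

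Wild-type replicate 2 was the highest of the 6 arrays for 16 of the 22 genes, while knockout replicate 2 was the lowest for 13. The medians of the 22 genes, each relative to its mean over the 6 arrays, were 0.00, -0.24 and -0.07 in knockout and 0.06, 0.39 and -0.14 in wild type, so wild-type replicate 3 lay below 2 knockout arrays. Without wild-type replicate 2 the list's median was -0.07 and 3 genes were left under an unadjusted p of 0.05. Leaving out each of the 6 arrays in turn gave medians between -0.31 and -0.07 and 3 to 15 such genes (13 without knockout replicate 1, 4 without knockout replicate 2, 6 without knockout replicate 3 and 15 without wild-type replicate 3). The heat map of the 22 genes shows the same array.

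**Figure D3:**
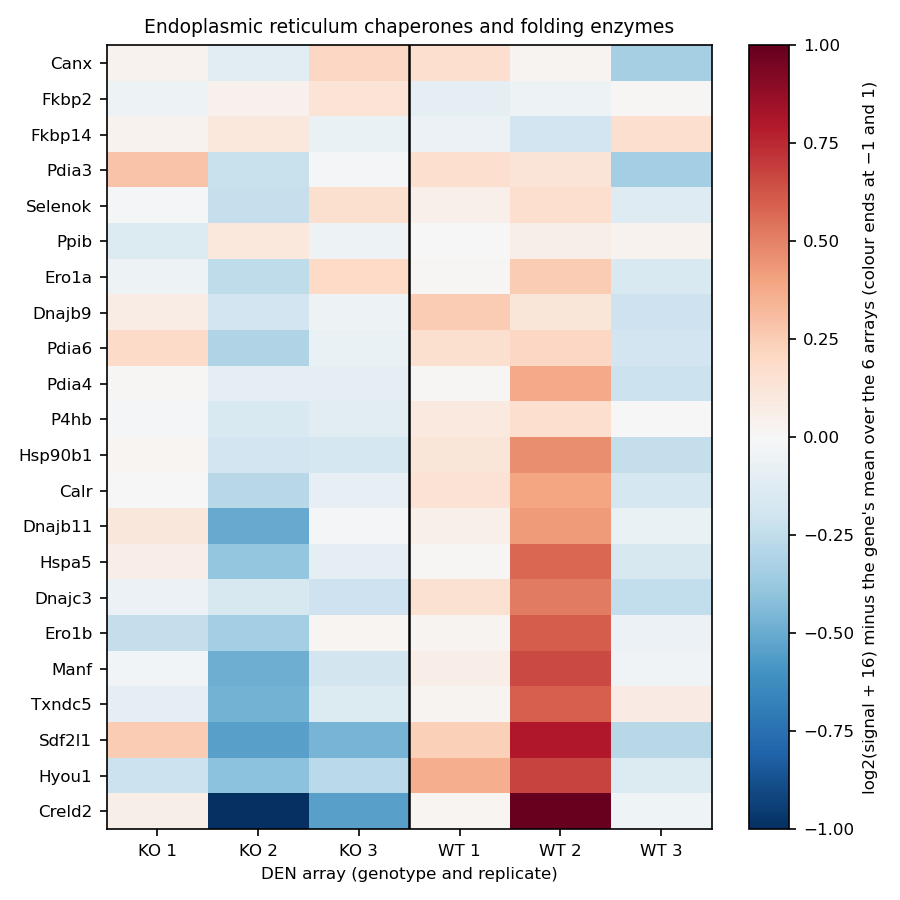
Colour gives log2(signal + 16) minus the gene's mean over the 6 DEN arrays for 22 endoplasmic reticulum chaperones and folding enzymes (rows), with knockout replicates 1 to 3 left of the line and wild-type replicates 1 to 3 right of it. Wild-type replicate 2 is the reddest column and knockout replicate 2 the bluest, most of all for Creld2.

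In the other branches of the response smaller shares of the genes were under the unadjusted threshold. Of 12 sensors and factors, 1 had an unadjusted p under 0.05, Creb3l3, a liver-specific membrane-bound factor of the ATF6 type, with 1772, 1846 and 1980 in knockout and 2160, 2349 and 2174 in wild type. These did not overlap, at -0.25 (SE 0.08, adjusted p = 0.356). Xbp1 had 5518, 7312 and 6684 in knockout and 6863, 8375 and 7064 in wild type (-0.20, adjusted p = 0.582), which overlapped. Of 22 degradation factors 4 were lower and 1 higher at that threshold (5.05% and 3.89% of all genes), with a median of -0.07. Without wild-type replicate 2, 0 were lower and the median was 0.00, with 11 of 22 below 0, and 1 was lower and 2 were higher without knockout replicate 2 or after centring. Those lower were Syvn1, its partner Sel1l (-0.29), Ubxn4 (-0.30) and the mannosidase-like Edem2 (-0.25), and the one higher was the ligase gene Marchf6 (0.22). Of 26 translocon and secretion genes 4 were lower and 1 higher (5.05% and 3.89% of all genes), with a median of -0.11. Without overlap on the lower side were 5 of the 26, against 5.99% of all genes. Sec61a1, the channel subunit through which new proteins enter, had 1830, 1854 and 1667 in knockout and 1904, 2412 and 2060 in wild type, without overlap (-0.25, adjusted p = 0.389). Wild-type replicate 2 was again the highest array for 16 of the 26, and without it 0 of them were lower and 1 was higher at an unadjusted p under 0.05, while 7 were lower without wild-type replicate 1 and 8 without wild-type replicate 3.

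Beyond the called genes, the 12 of smallest p in each direction with arrays that did not overlap and a mean log2 of at least 7 were listed; no overlap was part of that rule and is no result. The 24 had adjusted p-values between 0.0976 and 0.296, and none passed. The 12 higher in knockout differed by 0.32 to 0.57 and the 12 lower by -0.35 to -0.62.

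On the lower side Ap3d1, a subunit of the adaptor complex that sorts proteins to lysosomes, came closest to the threshold, with signals of 355, 297 and 344 in knockout and 493, 482 and 514 in wild type (-0.56, SE 0.10, adjusted p = 0.0976). Another Ap3d1 probe set, much dimmer, gave 0.01. Apoa4, an apolipoprotein that liver makes under lipid load, had 1380, 1046 and 1153 in knockout and 1519, 1958 and 1709 in wild type (-0.53, adjusted p = 0.206). Its other probe set gave -0.51. Nap1l1, a histone chaperone, gave -0.59 at 1 probe set and between -0.09 and 0.13 at 6 others. Eif3b, a subunit of a translation initiation factor, had 579, 585 and 577 in knockout and 737, 820 and 800 in wild type (-0.43, adjusted p = 0.213). Both groups were tight. Also lower were Snd1 (-0.44), a nuclease of RNA silencing complexes, Med18 (-0.62), a subunit of Mediator, Aldh16a1 (-0.48), the growth factor receptor gene Fgfr3 (-0.45), Tm7sf3 (-0.35), the histone demethylase gene Phf2 (-0.51), the BCL2 relative Bok (-0.47) and the glucose transporter gene Slc2a8 (-0.58).

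On the higher side Fas, the death receptor and a p53 target, had signals of 252, 242 and 258 in knockout and 194, 169 and 133 in wild type. The knockout arrays were tight and all above the wild type (0.57, SE 0.14, adjusted p = 0.230). Serpinb9, an inhibitor of granzyme B, had 162, 199.8 and 154 in knockout and 109, 102 and 129.7 in wild type (0.54, adjusted p = 0.240). Hacl1, a peroxisomal enzyme of alpha-oxidation, had 4240.47, 5066 and 4880.15 in knockout and 3832, 3675 and 3428 in wild type (0.37, adjusted p = 0.230). Aadac, an esterase of hepatocytes, had 8289, 9381 and 9456 in knockout and 7772, 6752 and 6790.04 in wild type (0.35, adjusted p = 0.262). Txnrd2, the mitochondrial thioredoxin reductase, gave 0.51, the chaperonin-like Mkks 0.41, the endosome tether Eea1 0.44, the adaptor Sdcbp 0.35 and the efflux pump gene Abcg2 0.32. Rnf141 (0.37), Elmod2 (0.40) and Etfbkmt (0.44), a methyltransferase for a mitochondrial electron carrier, complete the 12. For 14 of the 24 genes another probe set was also tested; of these 24 other probe sets 16 had the same sign, 18 were within 0.2 of 0, and the smallest adjusted p was 0.328.

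Whether a genotype difference with DEN is unlike that in the other arrays was tested as a difference of differences. At 4 weeks alone 611 probe sets separated the genotypes (2.26%) and with saline alone 3 (0.0111%), by the adjusted p. Of the DEN minus 4-week values, 206 probe sets passed (0.762%; 3780 at an unadjusted p under 0.05, 14%) and 139 of 12896 genes (1.08%), 72 below 0 (0.558%) and 67 above, and among the 26 genes above 7 did: Ngfr, Syvn1, Mkks, Txnrd2, Snd1, Med18 and Fgfr3. Against saline 0 of 27022 passed (2170 at an unadjusted p under 0.05, 8.03%), and the smallest adjusted p among the 26 was 0.0681, for Syvn1. For 15 of the 26 the difference had the opposite sign at 4 weeks, and for 13 with saline, and no share of all genes was taken for these signs. The 26 were picked by their p after DEN, and that difference is part of both tests. Their counts are therefore no result about the 26 as a set. The DEN arrays are both older and treated, so age and DEN cannot be told apart in the comparison with 4 weeks.

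Syvn1 was the clearest case. Its first probe set differed by -0.82 after DEN, by 0.34 with saline (adjusted p = 0.911) and by 0.54 at 4 weeks (adjusted p = 0.0296), and the DEN minus 4-week value was -1.36 (SE 0.18, adjusted p = 0.00131). Ngfr differed by -0.01 with saline and by -0.08 at 4 weeks, and its DEN minus 4-week value was -1.57 (SE 0.32, adjusted p = 0.0222). Med18 rose at 4 weeks in knockout by 0.55 (adjusted p = 0.0446) and was at -0.62 after DEN. Txnrd2 was at 0.51 after DEN, -0.28 with saline and -0.43 at 4 weeks (0.93 against 4 weeks, adjusted p = 0.0189). Etfbkmt was higher by 0.44 after DEN and by 0.51 at 4 weeks (adjusted p = 0.020), and the difference between these did not pass (-0.08, adjusted p = 0.883). Its other tested probe set was at -0.01 (SE 0.10) after DEN and at 0.54 at 4 weeks (adjusted p = 0.0053), so the difference after DEN was seen at 1 probe set only. In the plot of the 26 genes the intervals of the 3 conditions lie furthest apart for Ngfr and Syvn1.

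**Figure D4:**
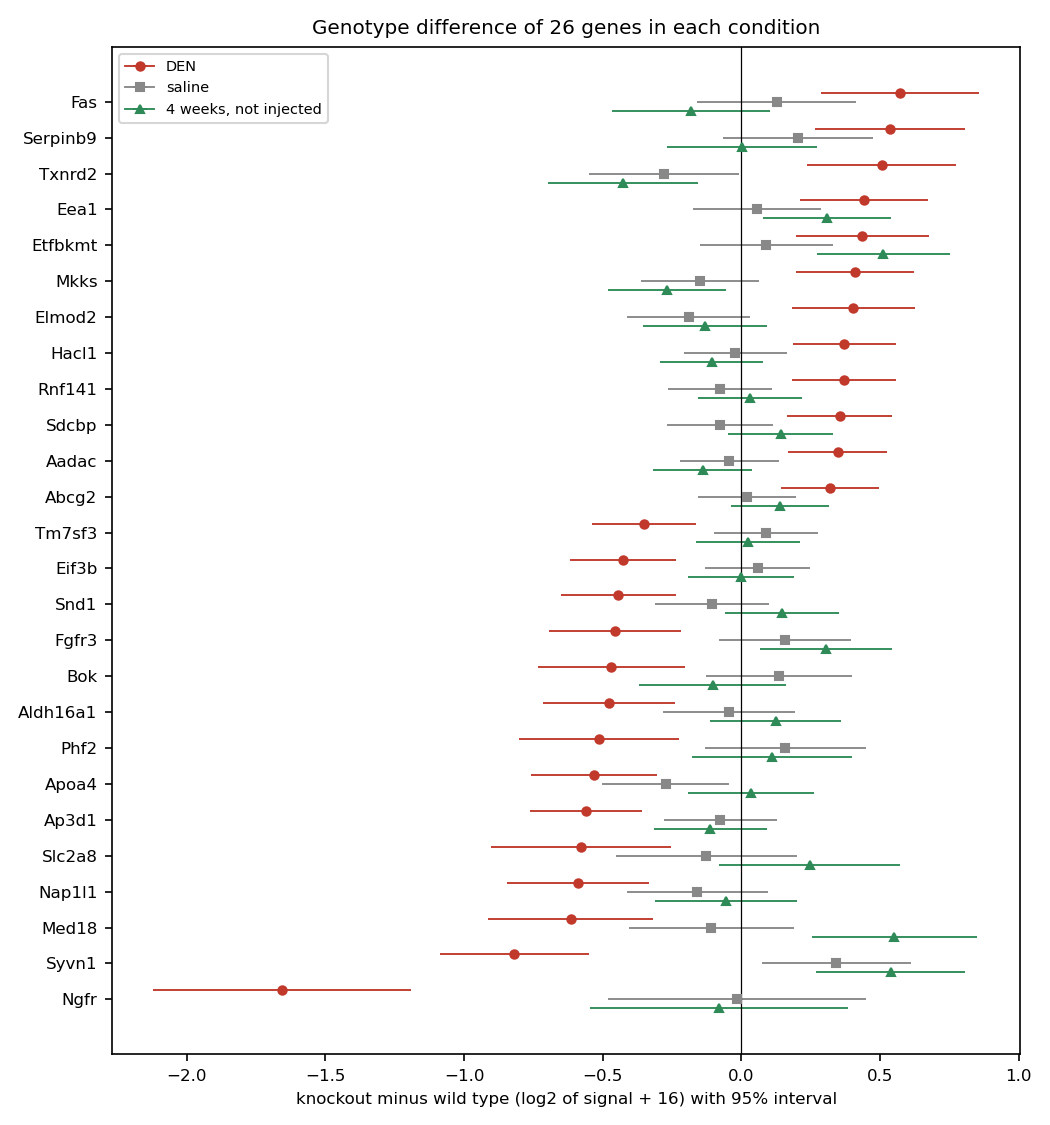
Knockout minus wild-type difference (log2 of signal + 16) with its 95% interval for 26 genes (rows) after DEN (red circles), with saline (grey squares) and at 4 weeks without injection (green triangles). Ngfr is at -1.66 after DEN and near 0 in the other conditions, and Syvn1 at -0.82 after DEN and above 0 in the others.

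Several genes with large genotype differences at 4 weeks did not pass after DEN. The DEN minus 4-week value was -4.33 for the ferritin receptor gene Scara5 (adjusted p = 4.24e-06), which was at -0.87 after DEN and 3.46 at 4 weeks. Scara5 had signals of 304, 221 and 135 in knockout and 278, 308 and 721 in wild type after DEN, where the groups overlapped and wild-type replicate 3 was highest. Cyp7a1, which opens the main route from cholesterol to bile acids, was at 0.63 after DEN and -2.51 at 4 weeks (3.15, adjusted p = 5.96e-05). After DEN its signals were 749, 1103 and 557 in knockout and 718, 286 and 576 in wild type, again overlapping. Id1 and Id3, inhibitors of helix-loop-helix factors and targets of BMP signals, were at 0.19 and 0.11 after DEN and at 2.48 and 1.37 at 4 weeks. Among 18 genes of cholesterol synthesis the median was 0.14 after DEN and -0.84 at 4 weeks, and 7 passed as higher against 4 weeks (Lss, Cyp51, Fdps, Idi1, Pmvk, Hmgcs1 and Fdft1), against 0.52% of all genes in that direction. After DEN alone 1 of the 18, Cyp51, had an unadjusted p under 0.05 (0.23, adjusted p = 0.556), and without wild-type replicate 2 the median was -0.05. Without knockout replicate 3 or wild-type replicate 1, 7 were higher at that threshold, and without wild-type replicate 3, 3 were.

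The other genes of the HMG family, chromatin proteins related to HMGN1 by structure or by name, were all above the wild type, with Hmgn1 itself at 0.01 (-0.04 after quantile normalization). Of 6 measured members, Hmgn1 included, 4 were higher at an unadjusted p under 0.05 (3.89% of all genes), 3 without overlap (4.97% of all genes), and 0 passed the adjusted threshold. Without knockout replicate 3, 1 member was higher at the unadjusted threshold, and without wild-type replicate 2, 2 were. The median was 0.49, against -0.01 over all genes. Hmgb2 had signals of 130.4, 122 and 132 in knockout and 92.9, 81.8 and 99.6 in wild type, with no overlap (0.43, adjusted p = 0.381). Hmgb3 had 178, 122 and 219 in knockout and 113, 75.5 and 148 in wild type, overlapping (0.57, adjusted p = 0.395). Hmgn5 had 1125, 1058 and 1233 in knockout and 939, 1017 and 898 in wild type, apart (0.26, adjusted p = 0.455). Hmga2, dim in adult liver, had 27.4, 47.7 and 37.0 in knockout and 21.5, 16.7 and 22.6 in wild type (0.54, adjusted p = 0.517), and Hmgn3 gave 0.65 with one knockout array at 142.

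Genes of the response to DNA damage showed no call. Of 19 genes of alkylation and base excision repair, 1 was higher and 1 lower at an unadjusted p under 0.05 (3.89% and 5.05% of all genes), with a median of -0.03. Pcna, the replication clamp, had 724, 713 and 727 in knockout and 594, 573 and 633 in wild type, without overlap (0.26, adjusted p = 0.543). Lig1, the replicative ligase, had 28.1, 25.2 and 41.9 in knockout and 65.1, 51.7 and 41.1 in wild type (-0.52, adjusted p = 0.528). Mgmt, which removes alkyl groups from guanine directly, had 86.9, 100.1 and 103 in knockout and 80.4, 48.1 and 94.9 in wild type, overlapping (0.35, adjusted p = 0.662). Of 18 nucleotide excision repair factors 0 passed even the unadjusted threshold, with a median of 0.03. Of 21 p53 targets, 2 were higher (Fas and the cyclin gene Ccng1, 0.22) and 1 lower (Sesn2, -0.74), against 3.89% and 5.05% of all genes. Cdkn1a, the p21 inhibitor, had 306, 172 and 97.1 in knockout and 387, 140.2 and 138 in wild type. The spread within each genotype exceeded the Cdkn1a difference of -0.17. With 1 array left out, 0 to 2 alkylation and base excision repair genes were lower and 0 to 2 higher at the unadjusted threshold, and 0 to 2 p53 targets were lower and 1 to 3 higher.

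Markers of fetal liver and tumours split as well. Tff3, a trefoil peptide, had signals of 70.0, 48.7 and 27.9 in knockout and 81.0, 103 and 164 in wild type, without overlap (-1.03, SE 0.25, adjusted p = 0.230). Tspan8 had 4.19, 21.1 and 29.1 in knockout and 38.1, 43.7 and 42.0 in wild type, also without overlap (-0.82, adjusted p = 0.437). The other 17 tested members had unadjusted p-values of 0.05 or more, and the median of the 19 was 0.04. Of 18 cell cycle genes only Mki67 had an unadjusted p under 0.05, with 34.4, 27.2 and 20.8 in knockout and 2.55, 24.1 and 11.6 in wild type, dim and overlapping (0.66, adjusted p = 0.537). The median of that list was 0.00. Without wild-type replicate 1, 4 were higher and 1 lower at that threshold and the median was 0.19, with the Gapdh ratio in the fit 4 were higher, and without knockout replicate 1, knockout replicate 2 or wild-type replicate 3, 0 were higher. Knockout replicate 1 was the highest array for 8 of the 18.

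In the lists of metabolism and stress 0 genes passed the adjusted threshold. Of 23 respiratory chain genes 3 were higher and 0 lower at an unadjusted p under 0.05 (3.89% and 5.05% of all genes), with a median of 0.06 (0.02 after quantile normalization, 0.12 after centring). Ndufs1, a subunit of complex I, had 1394, 1518 and 1519 in knockout and 1307, 1154 and 1123 in wild type (0.30, adjusted p = 0.364), and Ndufa9 had 2957, 2944 and 3083 in knockout and 2502, 2524 and 2577 in wild type (0.24, adjusted p = 0.437). Neither overlapped. Knockout replicate 2 was the highest array for 15 of the 23, and without it 2 were higher, 1 was lower and the median was 0.02. Of 23 NRF2 and glutathione genes 3 were higher and 0 lower (3.89% and 5.05% of all genes), led by Gstm3 (0.24), Gsta3 (0.28) and the regulator Nfe2l2 (0.18), with a median of 0.10. The 3 became 7 after centring, 5 without wild-type replicate 1, 2 after quantile normalization or without knockout replicate 2, and 1 without knockout replicate 1, without wild-type replicate 3 or with the Gapdh ratio in the fit, and wild-type replicate 3 was the lowest array for 12 of the 23. Of 17 fasting and insulin genes 1 was higher and 0 lower at the unadjusted threshold, and of 21 PPAR-alpha targets 1 was higher and 1 lower. The fasting and insulin median was 0.08, and 0.005 without wild-type replicate 2, the lowest array for 7 of the 17. Irs2, an insulin receptor substrate, had 89.6, 82.8 and 47.2 in knockout and 52.5, 47.3 and 21.1 in wild type (0.68, adjusted p = 0.389). Pdk4, a brake on pyruvate use, gave 0.61 (adjusted p = 0.490). Both genes had overlapping arrays. Of 19 immediate early and stress genes 1 was higher and 0 lower at an unadjusted p under 0.05 (3.89% and 5.05% of all genes). The median was 0.06, and 1 of the 19 was higher without overlap (4.97% of all genes). Gadd45b, a stress-induced gene, had 90.9, 48.7 and 48.0 in knockout and 30.5, 2.61 and 33.3 in wild type, without overlap (1.12, SE 0.33, adjusted p = 0.332). Acute-phase genes had a median of -0.09, with 22 of 28 below 0 (6624 of 12896 over all genes), and their 2 members under an unadjusted p of 0.05 opposed each other: Saa4 at -0.33 and Saa3 at 0.32. Without wild-type replicate 1, 8 were lower and 1 higher at that threshold, 3 were lower without knockout replicate 3, and without knockout replicate 1 the median was -0.02, with 15 of 28 below 0.

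Of 19 clock and clock output genes, 3 were lower (Dbp, Usp2 and Cry2) and 2 higher (Nfil3 and Clock) at an unadjusted p under 0.05, against 5.05% and 3.89% of all genes, and the arrays of the genotypes overlapped for each of the 5. Without wild-type replicate 3 there were 0 in either direction, and without knockout replicate 2, 0 were lower and 1 was higher. Dbp, an output factor with strong daily rhythm, had signals of 527, 219 and 1351 in knockout and 610.2, 1356 and 1489 in wild type, overlapping (-0.96, adjusted p = 0.518). Nfil3, which opposes Dbp, had 426, 352 and 341 in knockout and 404, 231 and 222 in wild type (0.41, adjusted p = 0.437), and without wild-type replicate 1 it was 0.68 (adjusted p = 0.0331). The time of day at collection is not given in the sources used here.

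The neighbours of Hmgn1 on chromosome 16 were examined because flanking sequence of the other strain can travel with a targeted allele. Of 26 measured, 5 were lower and 1 higher at an unadjusted p under 0.05 (5.05% and 3.89% of all genes), and 0 passed the adjusted threshold. The 5 became 2 without knockout replicate 3, and 3 without knockout replicate 1 or any 1 wild-type array, after centring or with the Gapdh ratio in the fit. Dyrk1a, a protein kinase, had 64.9, 69.1 and 62.4 in knockout and 103, 93.9 and 121 in wild type, with no overlap (-0.57, adjusted p = 0.297). It differed by 0.07 at 4 weeks (adjusted p = 0.890). Psmg1, a proteasome assembly factor, had 737, 868 and 931 in knockout and 622, 606 and 789.8 in wild type (0.33, adjusted p = 0.435), and the lower ones besides Dyrk1a were Kcnj6, Mx1, Mx2 and Dop1b, the first 3 of them dim.

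Markers of other cell types showed no call. Kupffer cell and macrophage markers had a median of 0.02 and a summed signal of 8271 to 11741 in knockout and 8146 to 11252 in wild type. The median of the macrophage markers was 0.18 without knockout replicate 1, 0.16 without wild-type replicate 3, -0.09 without knockout replicate 3 and -0.10 without wild-type replicate 1, and knockout replicate 1 and wild-type replicate 1 were the lowest arrays for 7 and 10 of the 18. Those of liver endothelium summed to 5192 to 6145 in knockout and 5092 to 5748 in wild type, and those of lymphocytes to 689 to 774 in knockout and 632 to 915 in wild type. Of 21 stellate cell and matrix genes 2 were lower and 2 higher at an unadjusted p under 0.05 (5.05% and 3.89% of all genes), with a median of 0.05. Without overlap were 1 lower and 2 higher (5.99% and 4.97% of all genes). Knockout replicate 1 was the highest array for 12 of the 21. In this list Rgs5, a pericyte gene, had 469.7, 629 and 563 in knockout and 394, 352 and 452 in wild type, without overlap (0.45, adjusted p = 0.374), while Des and Col1a1 were dim and lower (-0.58 and -0.56). The 6 tested cholangiocyte genes had values below 0 with a median of -0.22, 0 of them at an unadjusted p under 0.05. The median was -0.08 without knockout replicate 1, and 4 of the 6 were below 0 without wild-type replicate 3 or after centring; Krt7, Krt19 and Cftr were below the filter. The 8 neutrophil markers had a median of -0.16, with 0 at an unadjusted p under 0.05. Relative to gene means, their array medians were -0.31, -0.04 and -0.07 in knockout and -0.25, 0.42 and -0.14 in wild type. Only wild-type replicate 2 stood out. The median was -0.20 for 6 pancreas genes, 1 of them higher at that threshold, and 0.08 for 4 red cell genes, with 0 at it.

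In the remaining lists 0 genes passed the adjusted threshold. The median was -0.06 for fatty acid synthesis, 0.02 for PPAR-alpha targets, 0.04 for bile acid synthesis and transport, 0.03 for interferon response and antigen presentation, -0.04 for heat shock genes, 0.03 for BMP and TGF-beta targets, -0.02 for ribosomal proteins and -0.01 for splicing factors. It was 0.09 for male-biased and 0.10 for female-biased liver genes.

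Adipose genes marked a single array. Adipoq had signals of 864, 10.8 and 18.02 in knockout and 10.9, 12.0 and 22.8 in wild type, Fabp4 had 4499, 325 and 357 in knockout and 318, 271 and 499 in wild type, and Retn had 403, 6.28 and 10.5 in knockout and 32.5, 8.66 and 71.5 in wild type. Knockout replicate 1 alone was high for each. Hao2, an oxidase listed among female-biased liver genes, was high on the same array, with 650.4, 21.3 and 29.6 in knockout and 12.5, 22.8 and 27.6 in wild type. The median of the 7 adipose genes was 0.41, and -0.04 without knockout replicate 1. Without that array Ngfr was -1.67 (adjusted p = 0.0351) and Syvn1 was -0.78 (adjusted p = 0.0714), so the Syvn1 call was lost. The plot of the gene lists places all of them beside each other.

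**Figure D5:**
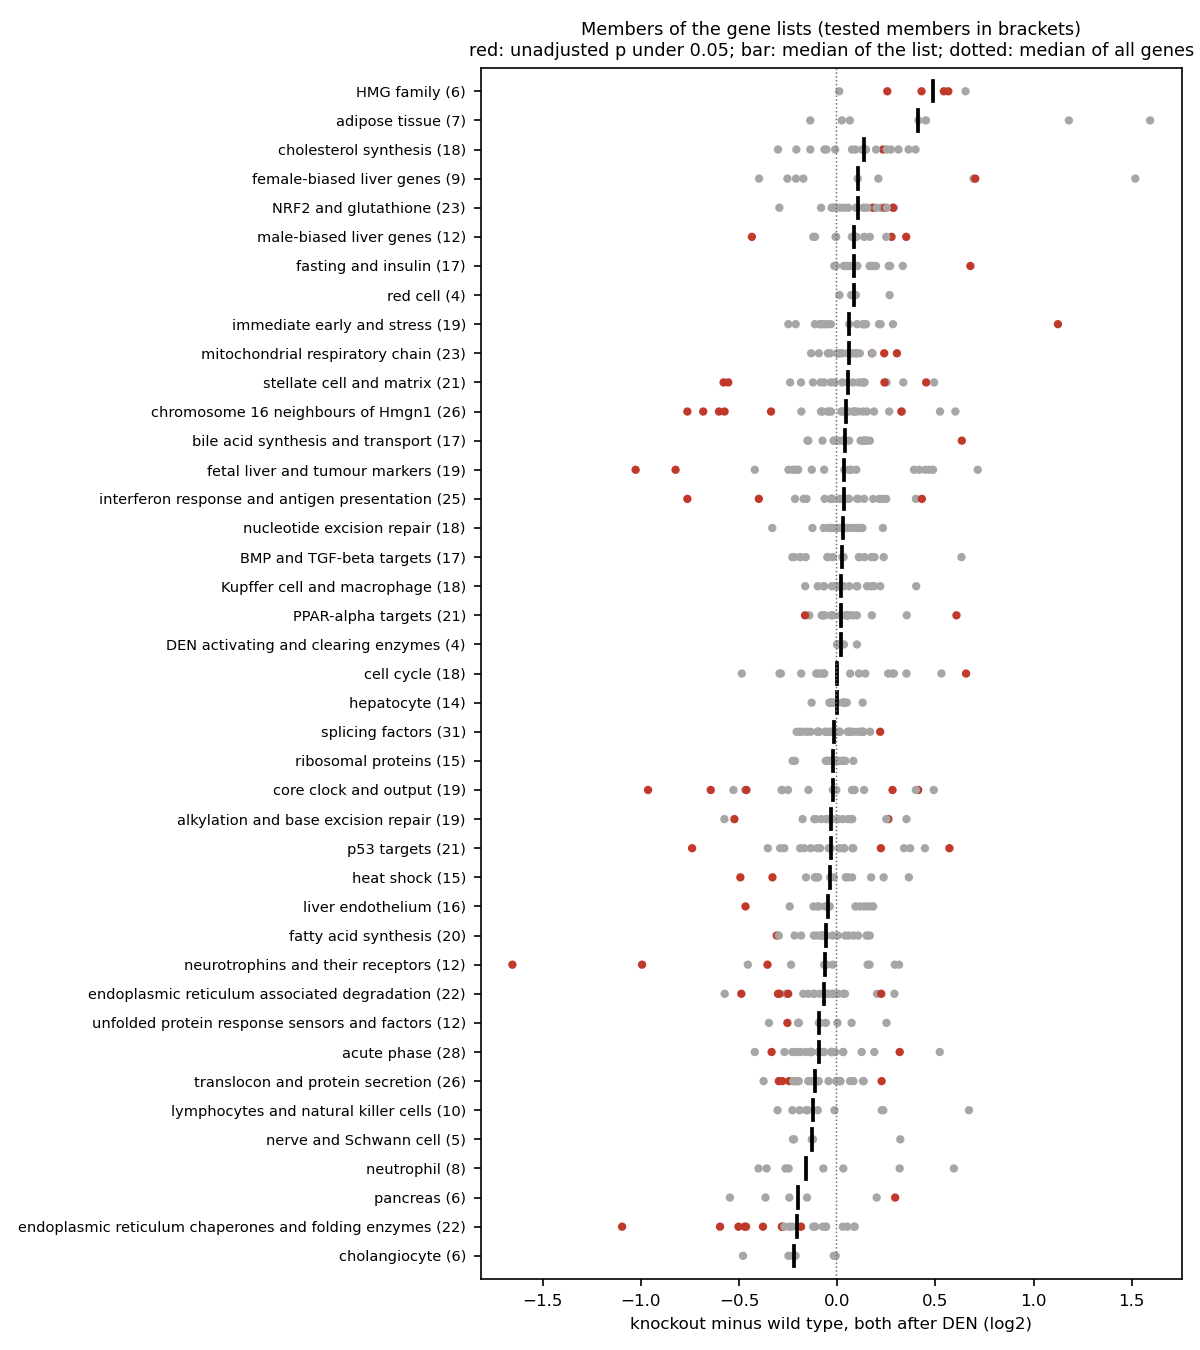
Each point is a tested gene placed by its knockout minus wild-type difference after DEN (log2); rows are the gene lists with the number of tested members, red points have an unadjusted p under 0.05, black bars are list medians and the dotted line is the median of all genes (-0.01). HMG genes have the highest median (0.49) of the lists shown, cholangiocyte genes (-0.22, and -0.08 without knockout replicate 1) and endoplasmic reticulum chaperones (-0.21) the lowest.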

How the data were processed

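Affymetrix Mouse430_2 arrays were used. The deposited intensity values are linear MAS5 signals, per the submitters' processing notes (no version given); leaving out 2 percent of probe sets at either end, every array averaged 150. Precision is limited by the number of arrays. After removal of 64 control probe sets, log2(signal + 16) was taken, and probe sets reaching the 40th percentile of the mean over 18 arrays were fitted in limma 3.58.1 (R 4.3.3; means of 6 groups, moderated variances that follow the intensity, 12 residual and 9.19 prior degrees of freedom). Tests were two-sided, with Benjamini-Hochberg adjustment over all 27022. The code was tested on simulated data with 200 changed probe sets. By the platform annotation 34945 probe sets have 1 gene, 932 several and 9160 none; only the first were named.

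Named genes were those called, the 12 of smallest p in each direction that did not overlap and had a mean log2 of at least 7, up to 3 members of each of 41 lists (803 genes, 655 tested), Hmgn1, Cyp2e1 and Afp, and 4 in each direction against 4 weeks. Further list members (such as Cdkn1a, Mgmt and Retn) are given as values and were chosen after these were seen. The arrays, members and lists were chosen with earlier results of these data known. Alternatives were other scalings, added numbers, filters, no trend, array weights, a replicate block, fewer probe sets or arrays, each array left out and, chosen after seeing the data, the Gapdh ratio in the model.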

Additional observations from a re-analysis of the deposited data

Results flagged for a closer look

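For the genes below, the knockout minus wild-type difference after DEN was unlike the one at 4 weeks by a test of the difference itself (limma, adjusted p under 0.05); each value is the difference after DEN minus that at 4 weeks, in log2. Age and DEN separate these arrays and cannot be told apart from one another. Gapdh 3′ to 5′ ratios were mostly higher at 4 weeks (1.13 to 2.19 at 4 weeks, 0.907 to 1.13 after DEN), with ranges that just overlapped. Their part in these values cannot be told apart from that of age and DEN.

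Of genes named for their difference after DEN, Syvn1 had -1.36, Ngfr -1.57, Snd1 -0.59, Med18 -1.17 and Fgfr3 -0.76, while Mkks had 0.68 and Txnrd2 0.93. Of genes with the smallest p-values of this test, Scara5 had -4.33, Id1 -2.29, Slc22a7, an organic anion transporter gene, -1.53 and Id3 -1.26. In the other direction Cyp7a1 had 3.15, Lyz1 1.31, Pxdc1 0.96 and Acot13, a mitochondrial thioesterase gene, 0.80.

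Of list members, the cholesterol synthesis genes Idi1 and Cyp51 had 0.94 and 0.67, the macrophage lysozyme gene Lyz2 1.03 and the matrix gene Dcn 0.77. The hepatocyte factor Hnf4a had -0.59 and the male-biased conjugating enzyme gene Ugt2b38 -1.36. Lyz1 and Lyz2 are near-identical copies, and probe sets of one may read the other.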

How the results depend on the processing

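With 3 arrays per group, and for dim probe sets with the number added before log2, the size of a difference is uncertain. The 2 calls after DEN were 1 with centred arrays, no filter or the Gapdh ratio, and 1 with a replicate block. Same-numbered arrays' deviations correlated at 0.0731, 0.0223 and -0.0204 over all tested probe sets. Macrophage marker medians, relative to gene means, were -0.21 and -0.29 on knockout and wild-type replicate 1, and 0.23 and 0.25 on replicate 3. Those of the chaperones were opposed on replicate 2, at -0.24 and 0.39. Whether the numbers pair the arrays cannot be told from these values. The calls were 0 with the 60th percentile filter, array weights, no saline arrays or the DEN arrays alone. With 1 array left out they were 0 to 4 (0 without wild-type replicate 2, 1 without knockout replicate 2, 4 without wild-type replicate 1 or 3). Without wild-type replicate 1 the 4 were Ngfr, Nfil3, Cth and Ces1d, and Syvn1 was not among them. Without wild-type replicate 3 they were Ngfr, Syvn1, Ttc28 and Il18bp. With no trend the count stayed 2, but Syvn1 was lost (adjusted p = 0.118). Ngfr was too dim to enter the 60th percentile filter and was not tested there, while Syvn1 was tested and lost (adjusted p = 0.0622). The 2424 probe sets at an unadjusted p under 0.05 were 3994 with no filter, 1402 with array weights, 1334 with the DEN arrays alone and 2127 to 2811 with 1 array left out. The 206 calls against 4 weeks were 101 with centred arrays, 120 with no filter, 19 with no trend, 58 with the replicate block, 36 without the saline arrays or with the compared arrays alone, and 61 to 354 with 1 array left out. The 0 calls against saline (2170 at an unadjusted p under 0.05) became 1 without _x_at and _s_at probe sets and 0 to 2 with 1 array left out. Array weights gave adjusted p-values of 0.0881 for Ngfr and 0.459 for Syvn1, and the DEN arrays alone 0.740 for each; the replicate block gave 0.043 and 0.214. With quantile normalization and array weights, Hmgn1 was at -0.0362 and -0.00316 and Cyb5a at -0.00779 and -0.00196. Leaving out 1 array also turned the sign of genes near 0 or led by 1 array: Cyp2e1 ranged from -0.0426 to 0.0949, Cyb5a -0.042 to 0.0291, Hmgn1 -0.0955 to 0.0906, Afp -0.154 to 0.437, Xpa -0.0379 to 0.264, Ier3 -0.0721 to 0.537, Rbp4 -0.0199 to 0.0995, Ass1 -0.0724 to 0.404, Lyz2 -0.0109 to 0.335, C1qb -0.266 to 0.0116, Ptprc -0.00553 to 0.372, Ighm -0.314 to 1.45, Hbb-b2 -0.106 to 0.288, Klf1 -0.113 to 0.211, Adipoq -0.0281 to 2.49, Fabp4 -0.0405 to 1.82, Pmp22 -0.47 to 0.0427, Sox10 -0.00625 to 0.716, Pxdc1 -0.00446 to 0.111, Id1 -0.000136 to 0.435 and Id3 -0.0459 to 0.228. Of 2887 gene values under the alternatives, 2838 kept their direction and side of the threshold. Of the named genes only Ngfr and Syvn1 were under it, so this count says little about the 2 calls. In 17 values, all of Ngfr or Syvn1, the call was lost, 31 values changed sign and 1, of Nfil3, came under the threshold. The cause of the other changes was not tested.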
